A study of Mus musculus with 66 samples.

Results

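Myc, Mycn and Lin28a are 3 genes of growth and RNA control in mouse embryonic stem (ES) cells. They were taken by symbol from a deposited expression table of 13957 genes, in which all 3 were found, and each was among the 8999 genes that reached at least 1 TPM in at least 1 group. TPM is an RNA abundance scaled for gene length and for library size. RNA was sequenced in 54 libraries of an E14Tg2a derivative of 129/Ola background that carries Esrrb and Nr5a2 in a form that auxin degrades. The cells stood in 2 arms, with auxin and without auxin, and both arms carried the degradable receptors. Each arm was sampled at 9 stages. These were an asynchronous culture, a mitotic arrest, and 20, 30, 40, 50 and 60 minutes, then 90 and lastly 120 minutes, after the arrest was lifted. Each of these 18 groups had 3 libraries. The arm was read from the sample titles, since the treatment entry gives every library as a control. Another 12 libraries came from wild-type E14Tg2a cells, as Nr5a2 ChIP and input in mitosis and in interphase, 3 libraries each. Cells with normal receptors and auxin were not among the libraries, and the receptors were lost as a pair, so effects of auxin, of Esrrb loss and of Nr5a2 loss cannot be told apart.

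The table holds 1 value per group, the authors' mean of 3 libraries. No value below therefore has a replicate error, and no difference between arms or times has a test. Nothing in the labels says that the 3 libraries of a group were separate cultures. The depth per library is unknown. The listed genes summed to 17155 TPM with auxin and 17189 TPM without auxin in mitosis, and to 46542 and 49059 TPM at 60 minutes. Of 10 ES cell markers 9 were listed, and their summed level ranged from 41.7 to 108 TPM with auxin and from 46.8 to 152 TPM without auxin. Of 8 fibroblast markers 3 were listed, with a sum of at most 0.551 TPM, and 4 of 6 primitive endoderm markers summed to at most 0.615 TPM. Of 5 mesendoderm markers 4 were listed, all but Gsc, with a sum of at most 1.21 TPM and a highest single value of 1.13 TPM. In bulk RNA, fewer cells of a type and less RNA per cell cannot be told apart.

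Myc and Mycn encode closely related transcription factors that bind E-box DNA together with the partner protein Max and drive genes of ribosome production, nucleotide synthesis and cell growth. In ES cells, signals from the cytokine LIF and the Wnt pathway sustain Myc, and both proteins support self-renewal and can stand in for one another in part. Their transcripts and proteins are short-lived. Lin28a encodes an RNA-binding protein of early embryonic cells that binds the terminal loop of let-7 microRNA precursors, blocks their processing with the help of a uridylating enzyme, and also binds many messenger RNAs. Mature let-7 in turn represses Myc, Mycn, Lin28a and Lin28b transcripts, which ties the 3 genes into 1 circuit. Esrrb and Nr5a2 are nuclear receptors of the pluripotency network that bind DNA as single molecules. The comparison asks how RNA of these genes returned after mitosis and how it differed when both receptors were degraded.

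The sequences shown for this circuit are the let-7 seeds, the Lin28 recognition element in a let-7 precursor, and the stretch upstream of Mycn. A link between them and the values below was not tested. All are from RefSeq on GRCm38.p6. The table of mature microRNAs held 9 let-7 family 5p sequences, including miR-98, and all 9 shared 1 seed, GAGGUAG, at bases 2 to 8, in capitals here. The 4 shown differ outside the seed.
let-7a-5p: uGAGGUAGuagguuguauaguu
let-7d-5p: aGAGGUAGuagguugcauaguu
let-7g-5p: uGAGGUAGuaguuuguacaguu
miR-98-5p: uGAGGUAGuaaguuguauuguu
The precursor of let-7d is shown because Mirlet7d was the let-7 gene with values in the expression table. It lies at chr13:48536012-48536114 on the minus strand. Capitals mark GGAG, the short element in the loop region that Lin28 proteins are known to recognise.
Mirlet7d: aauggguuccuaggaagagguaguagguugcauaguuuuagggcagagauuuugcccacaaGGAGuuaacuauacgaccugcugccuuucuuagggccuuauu
Of 12 hairpins of the family, 9 held GGAG between their arms and 3 did not, those of Mirlet7b, Mirlet7c-2 and Mir98. The last sequence is the 250 bases before the Mycn start site, chr12:12941837-12942086, read on the minus strand. It is shown because 2 Nr5a2 peaks lie close by on its upstream side.
Mycn: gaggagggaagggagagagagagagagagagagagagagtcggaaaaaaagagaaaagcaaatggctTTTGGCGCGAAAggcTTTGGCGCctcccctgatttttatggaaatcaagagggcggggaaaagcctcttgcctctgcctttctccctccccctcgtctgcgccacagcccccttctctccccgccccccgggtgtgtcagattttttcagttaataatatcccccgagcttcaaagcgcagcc
Capitals mark matches to E2F-type letters. TTTGGCGC began at -183 and at -168 from the start site, and TTTCGCGC on the other strand covered the stretch from -179, overlapping the first match by 4 bases.

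The promoter windows searched, from 250 bases before to 50 after the start site, were found for 2 of the 3 genes, Mycn and Lin28a. Both strands were searched for 6 motifs. The Mycn window held no TCAAGGTCA, the letters of an Esrrb site, no TCAAGGCCA, the letters of an Nr5a2 site, no AAGGNCA, their shared core, and no CACGTG, the E-box. The Lin28a window held none of these 4 either, and no TTTGGCGC or TTTCGCGC. Over 32851 promoter windows of the same length, the share with a match was 0.423% for TCAAGGTCA, 0.591% for TCAAGGCCA, 20.3% for AAGGNCA, 7.15% for CACGTG, 0.514% for TTTGGCGC and 0.323% for TTTCGCGC. The GC share was 56.7% in the Mycn window and 63.3% in the Lin28a window, beside a mean of 53.8% over all windows.

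Myc RNA was low in mitosis and returned in a short pulse. With auxin the authors' mean level of Myc was 0.410 TPM in mitosis, then 0.401, 0.619, 3.33, 7.24, 5.20, 2.21 and 1.68 TPM at the 7 times after release, in order. Without auxin Myc stood at 0.187 TPM in mitosis, then 0.411, 0.490, 3.81, 6.72, 5.32, 2.65 and 2.28 TPM. Asynchronous cells had 0.775 TPM with auxin and 1.03 TPM without. In both arms the level stayed under 1 TPM for 30 minutes and was highest at 50 minutes.

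Mycn followed the same course at higher levels. With auxin it stood at 2.25 TPM in mitosis, then 2.61, 3.17, 10.3, 18.8, 15.6, 8.04 and 4.32 TPM at the 7 times after release. Without auxin it stood at 2.50 TPM in mitosis, then 3.06, 3.87, 9.66, 21.2, 18.7, 9.72 and 5.98 TPM. Asynchronous cells had 5.11 TPM with auxin and 6.19 TPM without. Mycn was therefore also highest at 50 minutes in both arms. Without auxin the first values above mitosis came at 20 and 30 minutes, when the median gene had a log2 ratio to mitosis of 0.04 and -0.01.

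Lin28a RNA differed: on the deposited scale it was present in mitosis, stayed level for 40 minutes and was lowest at the end. With auxin it stood at 4.93 TPM in mitosis, then 4.92, 4.71, 5.04, 5.63, 6.91, 5.01 and 2.55 TPM. Without auxin it stood at 4.38 TPM in mitosis, then 4.31, 4.42, 4.25, 5.87, 7.09, 4.91 and 2.22 TPM. Asynchronous cells had 2.57 TPM with auxin and 1.92 TPM without. The level in mitosis was thus above that in asynchronous cells in both arms. Asynchronous cells set against 120 minutes had a median log2 ratio over all genes of -0.57 with auxin and -0.49 without. On the deposited scale this ratio was -0.59 with auxin and -0.69 without for Myc, 0.20 and 0.04 for Mycn, and 0.01 and -0.14 for Lin28a. Relative to the median gene it was -0.03 with auxin and -0.20 without for Myc, 0.76 and 0.53 for Mycn, and 0.57 and 0.35 for Lin28a.

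**Figure D1:**
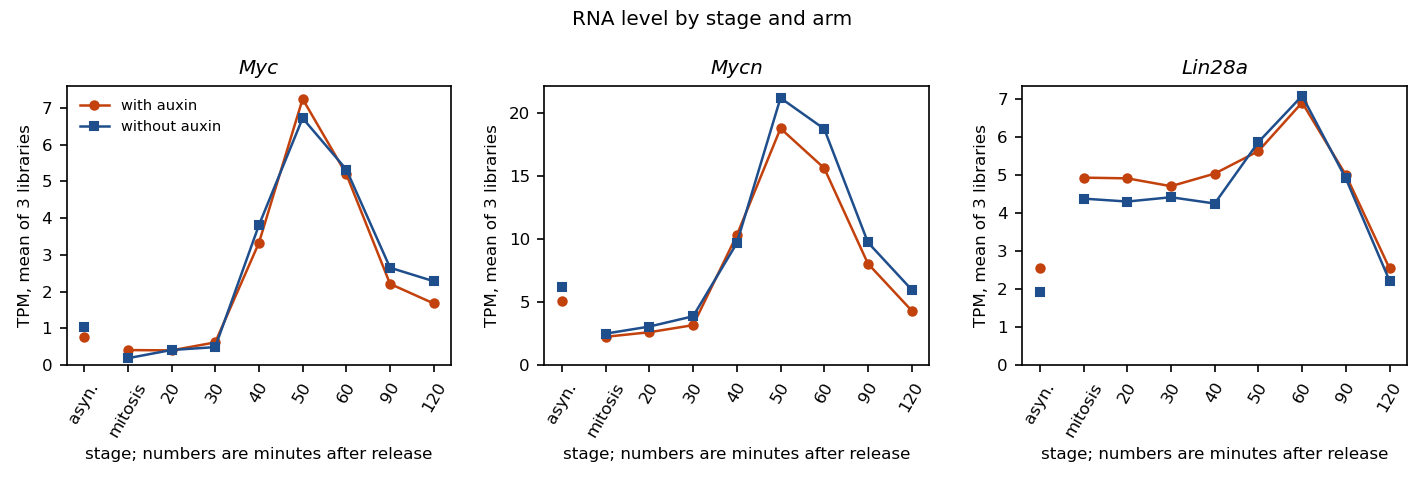
RNA level of Myc, Mycn and Lin28a in TPM (vertical axes, from 0, a scale per gene) by stage, with auxin (orange circles) and without auxin (blue squares); each point is the authors' mean of 3 libraries, with no error bar available, and stages are evenly spaced. Myc and Mycn were highest at 50 minutes in both arms, at 7.24 and 18.8 TPM with auxin and 6.72 and 21.2 TPM without, while Lin28a was highest at 60 minutes on this scale, though relative to the median gene it was then below its mitotic level, and lowest after mitosis at 120 minutes.

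The timing was set against all 8999 genes on the log2(TPM + 1) scale, which understates the change of low genes. At 40 minutes Myc and Mycn exceeded their mitotic levels by 2-fold or more in both arms, as did 6.01% of genes with auxin and 5.73% without. Their highest level came at 50 minutes, as for 7.25% of genes with auxin and 6.71% without. Lin28a was highest at 60 minutes, as were 36.8% of genes with auxin and 45.6% without. Myc and Mycn were thus among the early genes after mitosis, and Lin28a, on the deposited scale, peaked at the time most common among all genes.

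At 50 minutes the log2 ratio of Myc to mitosis was 2.55 with auxin and 2.70 without. Only 1.01% of genes with auxin and 0.645% without had a higher ratio. For Mycn the ratio was 2.61 with auxin and 2.67 without, with 0.867% and 0.689% of genes above it. For Lin28a it was 0.16 with auxin and 0.35 without, below the median gene, which stood at 0.67 in each arm. With auxin the order of Myc and Mycn turned with the pseudocount, and without auxin Myc was above Mycn under both. With 0.1 in place of 1, the ratio of Myc was 3.85 with auxin and 4.57 without, and that of Mycn 3.01 and 3.04. Under that pseudocount 0.745% of genes with auxin and 0.111% without were above Myc, and 3.82% and 3.52% above Mycn.

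By 60 minutes most genes were above mitosis, with a median log2 ratio of 0.95 with auxin and 1.01 without. Myc stood at 2.14 with auxin and 2.41 without, and Mycn at 2.36 and 2.50, so both exceeded the median shift. A 2-fold rise by 60 minutes was common, with 46.8% of genes past it with auxin and 50.8% without. Lin28a stood at 0.41 with auxin and 0.59 without, but relative to the median of all genes these ratios were -0.53 and -0.43, so its direction at 60 minutes turned with the scaling. The pulse of Myc and Mycn did not depend on that shift. Relative to the median gene, Myc with auxin stood at 1.41, 1.88 and 1.19 at 40, 50 and 60 minutes, and without auxin at 1.88, 2.03 and 1.40. For Mycn these values were 1.59, 1.94 and 1.41 with auxin and 1.47, 1.99 and 1.48 without.

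All 3 genes were lower at 120 than at 60 minutes in both arms. From 60 to 120 minutes the log2 change of Mycn was -1.64 with auxin and -1.50 without, and that of Lin28a was -1.16 with auxin and -1.33 without. Myc changed by -1.21 with auxin and by -0.95 without, where it fell short of 2-fold. The share of all genes at least 2-fold lower at 120 than at 60 minutes was 4.02% with auxin and 4.73% without, and the median gene changed by -0.09 with auxin and -0.17 without. With columns set to equal totals over the listed genes, the change with auxin was -0.97 for Myc and -0.94 for Lin28a, both then short of 2-fold.

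Lin28a ended below its mitotic level, which few genes did on the deposited scale. At 120 minutes its log2 ratio to mitosis was -0.74 in each arm. Only 2.41% of genes with auxin and 2.29% without were below mitosis at that time, and the median gene stood at 0.84 with auxin and 0.81 without. Of the 8999 genes, 6 had a lower ratio than Lin28a in each arm, and 5 of these were shared: Mir496a, E130102H24Rik, Slc27a2, Cfl1 and 1190005I06Rik, named here after their values were seen. With a pseudocount of 0.1 the genes below Lin28a numbered 15 with auxin and 13 without. In asynchronous cells the log2 ratio of Lin28a to mitosis was -0.73 with auxin and -0.88 without, beside medians over all genes of 0.28 and 0.33. There 13.8% of genes with auxin and 11% without were below mitosis. The shares of genes below mitosis depend on the scaling. At 120 minutes the listed genes summed to 41287 TPM with auxin and 40735 TPM without, beside 17155 and 17189 TPM in mitosis. These shares were not computed under other scalings.

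Between the arms, Mycn was lower with auxin, and the mean differences of Lin28a and Myc after release were smaller, at 0.07 and -0.07. The authors' deposited table called Mycn lower and Lin28a higher, and did not call Myc. Of all 13957 genes in the authors' deposited table, 7.26% were called lower and 6.74% higher. How that call was made, and over which stages, is not stated. No member reached a 1.5-fold difference on the log2(TPM + 1) scale at any of the 9 stages, while 1.97% of genes did at 1 or more.

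Mycn averaged 8.97 TPM with auxin and 10.3 TPM without auxin over the 7 release times. It was lower with auxin at 6 of the 7 times, the exception being 40 minutes, where it stood at 10.3 TPM with auxin and 9.66 TPM without. The log2 difference, with minus without auxin, was -0.17, -0.22, 0.08, -0.17, -0.25, -0.25 and -0.39 in the order of the times, with a mean of -0.19 and an SD over times of 0.14. Over all genes the median of this mean was 0.02, and 2.26% of genes lay below Mycn. Genes lower with auxin at 6 or 7 of the 7 times made up 12%. Mycn was also lower with auxin in asynchronous cells, with a difference of -0.24, and in mitosis, with -0.11. The gap was thus already there before release and was widest at 120 minutes, where the level with auxin was 27.8% below that without.

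Lin28a averaged 4.97 TPM with auxin and 4.72 TPM without auxin over the release times. Its log2 difference was 0.16, 0.08, 0.20, -0.05, -0.03, 0.02 and 0.14 in the order of the times, with a mean of 0.07 and an SD over times of 0.10. It was higher at 5 of the 7 times, as were 37.5% of genes at 5 or more times. Its largest difference was in asynchronous cells, 0.29, where the level with auxin was 33.9% above that without and 0.600% of genes had a higher difference. In mitosis the difference was 0.14, with 2.93% of genes above it. Near its peak, at 50 and 60 minutes, the arms were within 4.05% of each other.

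Myc averaged 2.95 TPM with auxin and 3.10 TPM without auxin over the release times. Its log2 difference was -0.01, 0.12, -0.15, 0.09, -0.03, -0.19 and -0.29 in the order of the times, with a mean of -0.07 and an SD over times of 0.15. It was lower with auxin at 5 of the 7 times, as were 24.7% of genes at 5 or more times, but below the median difference of its stage at 3 of 7. Myc was higher with auxin in mitosis by 0.25, a difference between 0.410 and 0.187 TPM, and lower in asynchronous cells by a difference of -0.19. Like Mycn, it had its lowest difference at 120 minutes, where 2.60% of genes lay below it. For Mycn at that time the share below was 1.46%.

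**Figure D2:**
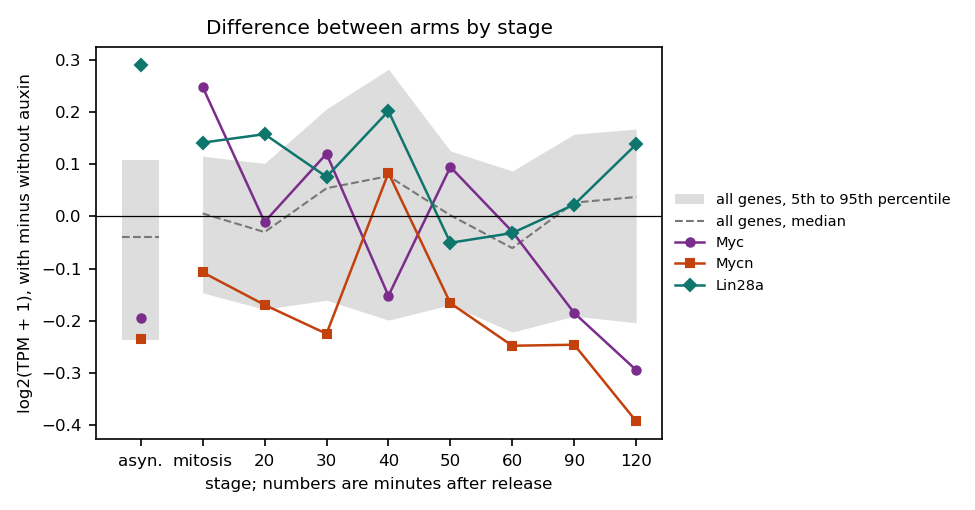
Difference between arms in log2(TPM + 1), with minus without auxin (vertical axis), by stage for Myc (purple circles), Mycn (orange squares) and Lin28a (green diamonds); the grey band spans the 5th to 95th percentile of 8999 genes and the dashed line is their median. Mycn lay below 0 at every stage but 40 minutes and reached -0.39 at 120 minutes, Lin28a stood at 0.29 in asynchronous cells, and Myc crossed 0 several times.

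The paralogs show how far each pattern extends within its family. TPM is scaled for length, so levels were compared between genes on that scale. Mycl, the third Myc gene, had 0.231 TPM with auxin and 0.236 TPM without in mitosis, and 3.25 and 3.33 TPM at 50 minutes, its highest time in both arms. All 3 Myc genes thus peaked at 50 minutes. Mycn was the most abundant of them throughout, at 77.8% of their summed TPM with auxin and 85.5% without in mitosis, and at 64.1% with auxin and 67.8% without at 50 minutes. The ratio of Mycn to Myc was 2.59 with auxin and 3.15 without at 50 minutes, and 6.59 with auxin and 6.003 without in asynchronous cells. Mycl was not called in the authors' deposited table.

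Lin28b, the paralog of Lin28a, was highest when Lin28a reached its lowest level after release. It had 1.23 TPM with auxin and 1.11 TPM without in mitosis, and its highest levels, 4.43 and 3.98 TPM, at 120 minutes. The ratio of Lin28b to Lin28a was 0.250 with auxin and 0.253 without in mitosis, 0.373 with auxin and 0.365 without at 60 minutes, and 1.74 with auxin and 1.79 without at 120 minutes. By these TPM values, the Lin28 gene with the higher level thus changed between 90 and 120 minutes in both arms. The authors' deposited table called Lin28b higher, with a mean log2 difference of 0.12 after release, and Lin28b was higher with auxin at 6 of the 7 times. The genes differ in span, 15867 bp for Lin28a and 109698 bp for Lin28b. Whether reads over introns entered the values is not stated, so the ratio may not be that of mature transcripts.

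Mirlet7d, whose precursor carries the GGAG shown above, was highest late as well. It had 6.06, 0.523, 5.13, 13.4 and 14.01 TPM with auxin at 40, 50, 60, 90 and 120 minutes, and 5.07, 0.543, 6.004, 13.8 and 13.5 TPM without auxin. In mitosis it had 3.74 TPM with auxin and 3.88 TPM without. Its level at 50 minutes was thus a sharp dip, with a log2 ratio to mitosis of -1.64 with auxin and -1.66 without. Of the 8999 genes, 0 had a lower ratio in either arm. The precursor spans 103 bases, and whether the dip arose in the measurement was not tested. These values are of RNA over a precursor gene, not of mature let-7, which was not measured.

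Pvt1, the long non-coding RNA gene next to Myc on the side of higher coordinates, lay 47.6 kb away and followed another course. It had 1.75 TPM with auxin and 1.87 TPM without at 50 minutes, when Myc was highest, and 9.80 and 10.4 TPM at 120 minutes. Pvt1 was called lower in the authors' deposited table, with a mean log2 difference after release of -0.04 and a difference of -0.24 in asynchronous cells. Its span is 222230 bp, that of Myc 5021 bp. On the other side the nearest listed gene, 9930014A18Rik, was 1150 kb away and under 0.2 TPM in every group.

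Ddx1, an RNA helicase gene 277 kb from Mycn, had 1.16 TPM with auxin and 1.07 TPM without at 50 minutes and was highest at 120 minutes, at 4.50 and 4.25 TPM. Fam49a, 555 kb away on the other side, stayed under 1 TPM in all groups. Dhdds, an enzyme gene of dolichol synthesis 2.37 kb from Lin28a, had 1.66 TPM with auxin and 1.57 TPM without in mitosis and 5.79 and 6.10 TPM at 60 minutes. Cd52, 74.3 kb on the other side, stayed under 0.2 TPM. None of these 4 genes was called in the authors' deposited table. Over 15 genes of the 3 neighbourhoods 10 were listed, and 4 were called lower in the authors' deposited table: Pvt1, Sh3bgrl3, Fam49b and Rps6ka1. The background share called lower was 7.26%. Their median difference after release, over the 10, was 0.01.

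**Figure D3:**
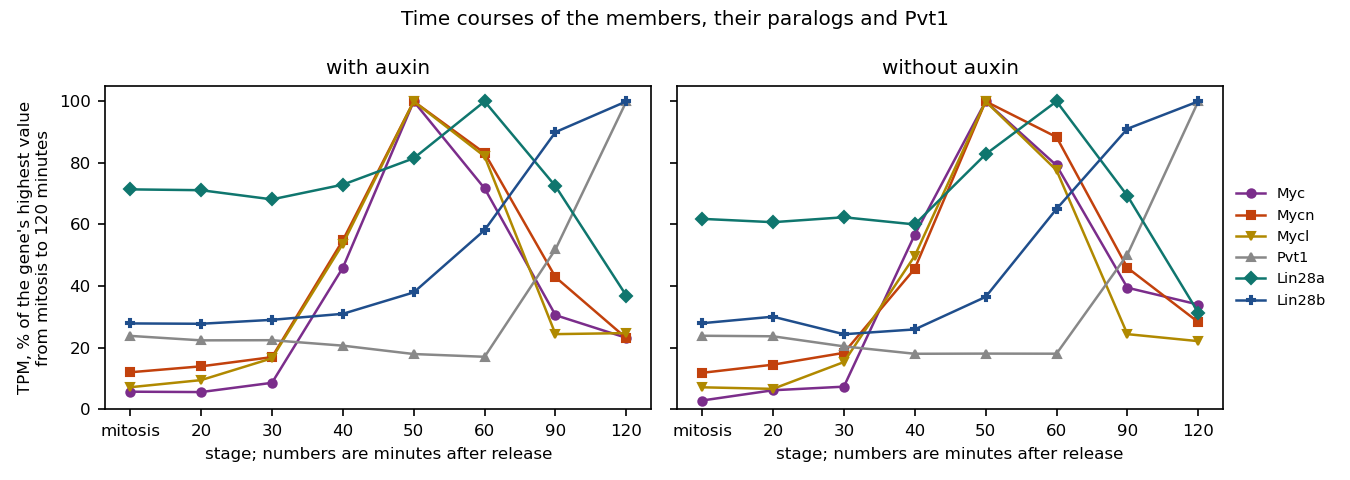
TPM as a percentage of each gene's highest value from mitosis to 120 minutes (vertical axis) by stage, with auxin in the left panel and without auxin in the right, for Myc, Mycn, Mycl, Pvt1, Lin28a and Lin28b; each point is the authors' mean of 3 libraries and stages are evenly spaced. Myc, Mycn and Mycl reach 100% at 50 minutes, Lin28a at 60 minutes on this scale, where relative to the median gene it was below its mitotic level, and Pvt1 and Lin28b at 120 minutes in both arms.

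Across the 18 groups, Myc and Mycn had Pearson's r of 0.97 in log2(TPM + 1), Myc and Mycl 0.96, and Mycn and Mycl 0.95. Lin28a had 0.42 with Myc, 0.43 with Mycn, -0.23 with Lin28b and -0.68 with Pvt1. These are descriptions over 18 group means that share 9 stages between arms, and successive times are not independent. The gene most like Myc was Zfand5, a ubiquitin-binding protein gene, at 0.990. It was followed by Ing2, a reader of histone methylation, Idi1, an enzyme of isoprenoid synthesis, Rnf151, and Dusp5, a phosphatase of ERK kinase, all from 0.986 to 0.987. Zfand5 had 24.6 TPM with auxin and 22.5 TPM without at 50 minutes. Genes with r of at least 0.95 numbered 287 for Myc, or 3.19% of genes.

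The gene most like Mycn was Pim1, a kinase gene that answers LIF signals in ES cells, at 0.989. It had 8.41 TPM with auxin and 9.70 TPM without at 50 minutes. Pim1 was called lower in the authors' deposited table, beside 7.26% of all genes. So were the next 2, Ucp2, a mitochondrial carrier, and Ube2c, a ubiquitin-conjugating enzyme of mitotic exit. Since r was taken over both arms, a gap between arms like that of Mycn raises it, and these calls are not independent of the ranking. Pcif1, an enzyme of cap methylation, and Dazap2 came next, both at 0.981. For Mycn 156 genes, 1.73%, had r of at least 0.95. For Lin28a there were 0, and the most like it were Gm11944 at 0.915, Atf5, a stress-response transcription factor, at 0.907, Acrbp at 0.884, Atp2a2, a calcium pump, at 0.861, and Plekhg5 at 0.858. The course of Lin28a was thus the least shared of the 3.

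Of 13 partners and antagonists in the network, 12 reached 1 TPM, and in the authors' deposited table none was called lower, beside 7.26% of all genes, and 2 were called higher, beside 6.74%. The 2 were Mxd1, an antagonist of Myc at E-boxes, with 2.52 TPM with auxin and 2.20 TPM without after release, and Bptf, a chromatin remodelling factor, with 5.45 and 5.10 TPM. Max, the obligate partner, had 7.01 TPM with auxin and 7.13 TPM without over the release times and was highest at 90 minutes in both arms, later than Myc and Mycn. The list's median log2 difference after release was 0.00, beside 0.02 over all genes.

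Of 16 cofactors and turnover factors 15 were listed. In the authors' deposited table Ruvbl2 and Wdr5 were called lower and Fbxw7 higher, that is 2 and 1 of 15 beside 7.26% and 6.74% of all genes. Wdr5, a chromatin protein that helps recruit Myc, had 7.81 TPM with auxin and 9.02 TPM without after release and was lower at 7 of 7 times. Fbxw7, part of the ubiquitin ligase that degrades Myc proteins, had 3.37 TPM with auxin and 3.07 TPM without. The list's median difference was 0.01.

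Of 41 textbook Myc target genes 36 were listed and 35 reached 1 TPM. Of the 36, the authors' deposited table called 5 lower, beside 7.26% of all genes, and 1 higher, beside 6.74%. Those shares also cover genes that never reached 1 TPM. Ubtf, a transcription factor of ribosomal RNA genes, had 5.04 TPM with auxin and 6.32 TPM without after release, a mean log2 difference of -0.27. Hk2, a hexokinase, stood at 6.18 TPM with auxin and 6.85 TPM without, Shmt1 and Shmt2, enzymes of serine and folate use, at 9.89 and 4.03 TPM with auxin and 10.6 and 4.46 TPM without, and Tfrc, the transferrin receptor, at 14.5 and 14.98 TPM. Ccnd2, a cyclin, was called higher at 0.360 TPM with auxin and 0.300 TPM without. The most abundant targets, the nucleolar genes Nop56 and Nop58, had 41.8 and 25.0 TPM with auxin and 41.1 and 24.7 TPM without. The median difference of the list was -0.03, beside 0.02 over all genes. Of 35 members 23 were below 0, a count for which no share over all genes was computed. No member was past 1.5-fold, and only 0.0667% of all genes were.

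Of 16 genes of Lin28 action and let-7 biogenesis 14 were listed. In the authors' deposited table Trim71 was called lower, and Lin28b and Dis3l2 higher, or 1 and 2 of 14, with 7.26% and 6.74% over all genes. Trim71, a stem cell repressor of messenger RNA that is itself a let-7 target, had 14.5 TPM with auxin and 15.3 TPM without after release. Dis3l2, the exonuclease that removes uridylated let-7 precursors, had 0.700 TPM with auxin and 0.661 TPM without. Drosha and Dgcr8, the nuclear processing pair, had 4.30 and 10.1 TPM with auxin and 4.36 and 10.5 TPM without, and were not called. The list's median difference was -0.005. Of 22 let-7 genes and hosts 3 were listed, Mirlet7d, Huwe1 and Wdr82, with a median difference of 0.04, and none was called.

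Of 23 known let-7 targets 22 were listed, and the authors' deposited table called 3 of them lower and 5 higher, against background shares of 7.26% and 6.74%. The 3 were Ccnd1, a G1 cyclin, with 2.60 TPM with auxin and 3.06 TPM without after release, E2f2, a cell cycle transcription factor, with 2.95 and 3.38 TPM, and Sall4, a pluripotency factor, with 7.86 and 8.36 TPM. Among the 5 were Igf2bp2, an RNA-binding protein, with 1.77 TPM with auxin and 1.52 TPM without, Tgfbr1, a TGF-beta receptor, with 4.30 and 3.87 TPM, Irs2, an insulin signalling adaptor, with 5.06 and 4.71 TPM, and Ccnd2. The list's median difference was 0.01.

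Of 16 regulators upstream of Myc, the authors' deposited table called 3 lower and 4 higher, where the shares over all genes were 7.26% and 6.74%. Those called lower were Lifr and Il6st, the 2 chains of the LIF receptor, and Klf4, a pluripotency factor downstream of LIF. Lifr had 1.49 TPM with auxin and 1.83 TPM without after release, Il6st 2.78 and 3.24 TPM, and Klf4 2.57 and 3.22 TPM. Those called higher were Jak1, the kinase of the same receptor, with 2.20 TPM with auxin and 1.99 TPM without, and 3 Wnt pathway genes. Of these, Tcf7l1, a repressor at Wnt targets, had 6.63 TPM with auxin and 6.11 TPM without, Axin2, a feedback inhibitor, had 0.608 and 0.516 TPM, and Lef1 had 0.193 and 0.162 TPM. The list's median difference was 0.01. The calls were made on these same samples and are not independent of the values beside them.

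**Figure D4:**
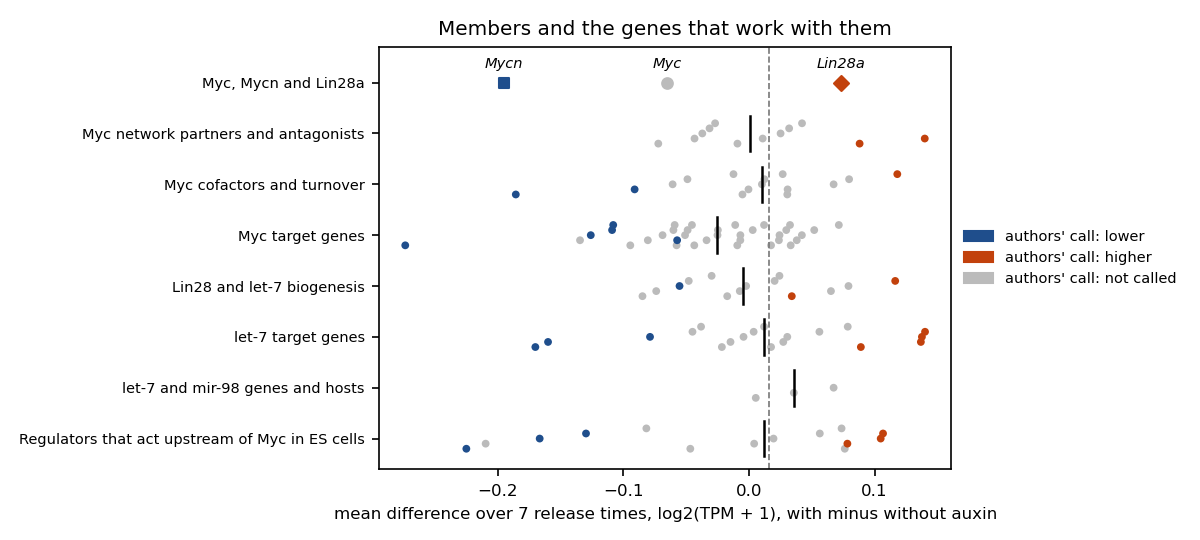
Mean log2(TPM + 1) difference over the 7 release times, with minus without auxin (horizontal axis), for the 3 genes and for members of at least 1 TPM of 7 lists of related genes; points are genes, coloured by the authors' call, black bars are list medians and the dashed line is the median of 8999 genes at 0.02. Mycn lies at -0.19, Myc at -0.07 and Lin28a at 0.07, while the medians of the Myc network, cofactor, target, biogenesis, let-7 target and upstream lists lie from -0.03 to 0.01.

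The authors' Nr5a2 peak list held 35266 regions of wild-type cells, with coordinates on mm10 and 1 of 4 class codes per peak: L for 65.1% of peaks, eB for 18.1%, dB for 10.3% and nB for 6.46%. What the codes stand for is not given in the labels. Peak heights are not part of the list, and mitotic and interphase binding were not compared here. Peaks were counted in each gene and 10 kb on either side, with RefSeq gene positions on GRCm38.p6. Over the 13952 listed genes with a position, 70.5% had at least 1 peak there, with a median of 1, 28.2% had an eB peak and 17.7% a dB peak.

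Mycn, at chr12:12936093-12941836 on the minus strand, had 5 peaks, and 9.85% of genes had 5 or more. A peak of class eB lay inside the gene at chr12:12938331-12939310. A second eB peak, chr12:12942239-12942536, lay 403 to 700 bp upstream of the start site, just beyond the stretch printed above. A broad dB peak of 1917 bp, chr12:12942624-12944541, followed at 788 to 2705 bp upstream. The other 2, of class L, lay beyond the end of the gene at 3975 and 8261 bp, and the next, also L, fell outside the window at 10361 bp.

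Myc, at chr15:61985341-61990361, had 2 peaks, both of class L, 5986 bp away on the side of lower coordinates and 4141 bp away on the other. Neither lay in the gene. Lin28a, at chr4:134003330-134019196 on the minus strand, had 1 peak of class L in the gene, chr4:134017580-134017898, which lay 918 to 1236 bp downstream of the start site of its promoter window. The next L peak of Lin28a was just outside the window, at 10422 bp. Of the 3 genes, Mycn, called lower in the authors' deposited table, was thus the one with eB and dB peaks within 10 kb, and a count of 3 genes allows no comparison of classes with calls.

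Wider windows changed these counts. Within 50 kb Myc had 7 peaks, Mycn 11 and Lin28a 7, beside a median of 3 over all genes. Within 100 kb they had 15, 13 and 13 peaks, beside a median of 6 and a 90th percentile of 14. At Myc 14 of the 15 were of class L and 1 was eB, and most lay on the side of Pvt1, which itself spans 11 peaks. Lin28a had 1 dB peak within 50 kb and 3 within 100 kb. Mycl, the paralog that was not called, had 2 L peaks in its gene and 4 peaks within 50 kb, and Lin28b had 1 L peak within 100 kb.

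**Figure D5:**
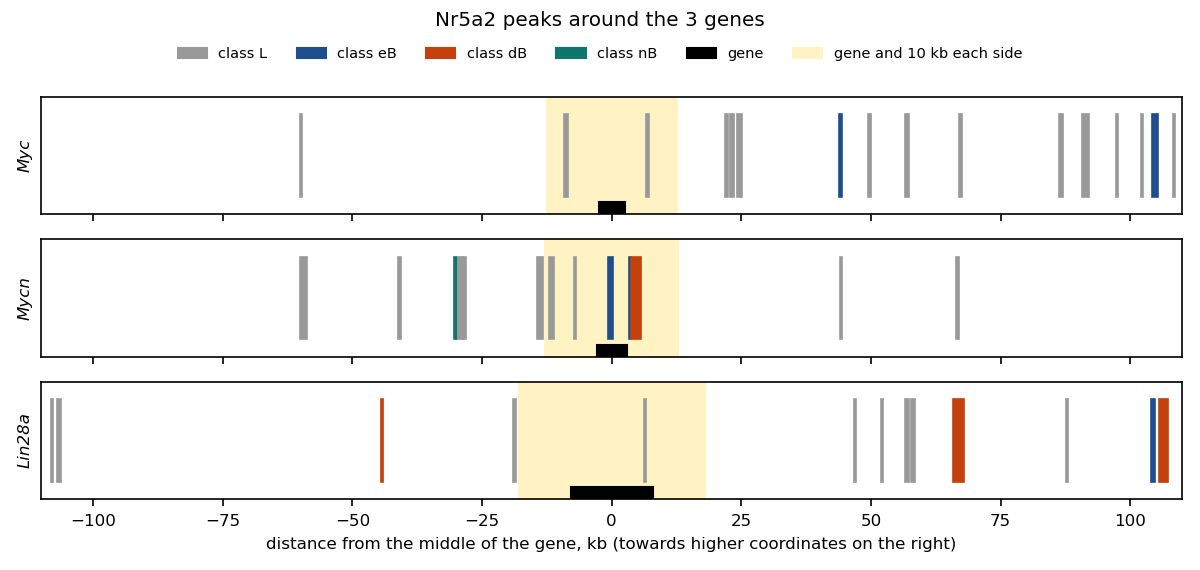
Nr5a2 peaks around Myc, Mycn and Lin28a, by distance in kb from the middle of the gene (horizontal axis, to scale, with higher coordinates to the right); bars are peaks coloured by the authors' class code, black boxes are the genes and the shaded zone is the gene with 10 kb on either side. Mycn has 5 peaks in its zone, 2 of class eB and 1 of class dB among them, Myc has 2 and Lin28a 1, all of class L.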

How the data were processed

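RNA was measured in 54 libraries and Nr5a2 binding in 12. The authors deposited TPM with 1 column per group, the mean of 3 libraries. RNA libraries were ribo-depleted, stranded and paired-end per the labels' protocols. Per the submitters' processing notes, the authors' tools included STAR, RSEM, DESeq2, MACS2 and Bowtie2 and the build was mm10; no versions or roles are given there, and the depth per library is unknown. Whether reads over introns entered the values is not stated. From the deposited TPM, log2(TPM + 1) was computed with Python 3.11.15, pandas 2.3.3 and numpy 2.4.6. Called means the authors' deposited call, a ratio of at least 1.5 between arms, or a ratio of at least 2 over time. Unless named here, shares of genes use the 8999 genes of at least 1 TPM in at least 1 group. Shares of the authors' calls use all 13957 listed genes. Shares with Nr5a2 peaks use the 13952 genes with a position. With means alone, no planned test over libraries could be run. The 3 genes and all gene lists were chosen with earlier results of these data known. Named genes are the 3 members, list members with a call or among the 6 most abundant of their list, the nearest listed gene on each side, and the 5 genes with the highest Pearson r. Genes with close copies elsewhere, such as Ran, Eif4a1 and Hspd1, are uncertain and were not described. Peaks were matched by coordinates to RefSeq gene positions on GRCm38.p6, found for 13952 symbols, 83 of them by a synonym. The scripts were tested on simulated data. Alternatives were a pseudocount of 0.1, no filter, centring, quantile normalization, equal totals, leaving out each release time, and other windows for peaks. A few list members that the rule would name are not reported here.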

Additional observations from a re-analysis of the deposited data

How the results depend on the processing

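Centring each column on the median gene, quantile normalization and scaling to equal totals over the listed genes, the last chosen after seeing the data, turned the log2 ratio of Lin28a at 60 minutes to mitosis from positive to negative. With auxin it became -0.53, -0.80 and -0.82 in that order, in place of 0.41, and without auxin -0.43, -0.71 and -0.70, in place of 0.59. The listed genes sum to more TPM at 60 minutes than in mitosis, which these scalings remove by construction. The change from 60 to 120 minutes with auxin fell short of 2-fold under quantile normalization (-0.996 for Myc, -0.96 for Lin28a) and equal totals (-0.97 and -0.94). A pseudocount of 0.1 moved the Myc difference in mitosis from 0.25 to 0.83, past 1.5-fold, and the Myc change from 60 to 120 minutes without auxin from -0.95 to -1.19, past 2-fold, as its construction does for low genes. It also raised the genes 1.5-fold lower with auxin, at single stages, to between 80 and 171 in place of 12 to 49, and those 1.5-fold higher to between 31 and 120 in place of 3 to 20. Genes 2-fold lower at 120 than at 60 minutes then numbered 859 with auxin and 1049 without, in place of 362 and 426. Peak counts followed the window: 7, 11 and 7 for Myc, Mycn and Lin28a within 50 kb, 15, 13 and 13 within 100 kb, and 0, 1 and 1 in the gene alone. Leaving out each release time in turn kept the mean difference between -0.10 and -0.03 for Myc, between -0.24 and -0.16 for Mycn and between 0.05 and 0.09 for Lin28a. Without the filter none of 22 counts moved by over 1.5 times. No paired analysis was possible because the table has 1 mean column per group, and leaving out a replicate could not be run for the same reason. Levels under 1 TPM, such as Myc in mitosis, rest on few reads of unknown number.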
